A study of Mus musculus with 17 samples.

Results

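The albumin gene family of the mouse was followed through livers of Afp mutant animals at 2 ages. Its members here were all probes that the platform annotation assigns to Afp, Alb or Afm, which gave 3 genes and 5 probes out of 20794 probes and 9030 named genes on the array. Afp had 3 probes (19612, 19709 and 19729), Alb had 1 (19215) and Afm had 1 (19640). Gc, the vitamin D binding protein gene that belongs to the same family, had 0 probes and was not analysed here. A value was present for 85 of 85 combinations of member probe and array, so no member was lost to a filter on missing values.

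Each of 17 cDNA arrays with 2 colours set total liver RNA of 1 mutant mouse against wild-type liver RNA pooled from several animals. The adult group held 6 mutant males of the line that the labels call AFP1 kO, aged 17 weeks, on 11 arrays. In 5 of them the mutant was measured once in the red dye Cy5 and once in the green dye Cy3, and animal 5 has a Cy5 array only. The fetal group held 6 mutant embryos, 3 female and 3 male, with the mutant in Cy5 on every array. The wild-type pool of the adult arrays named 6 males aged 17 weeks. The fetal arrays all name the same 4 pool animals, but the labels call that pool female on 4 arrays and male on 2, and give the embryonic age as day 7.5 for tissue they name fetal liver. That day is quoted as a label only. It is not taken here as the age of the embryos, and it was not tested. Which part of Afp was altered in this line is not given in the sources used here.

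Albumin, alpha-fetoprotein and afamin are related secreted plasma proteins made mainly by hepatocytes. Alpha-fetoprotein is the major plasma protein of the fetus, is also made by the yolk sac, and its gene is silenced in the liver after birth, while albumin is the major plasma protein of the adult. Both carry fatty acids and other small ligands in blood, and afamin is known as a carrier of vitamin E. In the mouse the genes lie next to each other on chromosome 5 in the order Alb, Afp, Afm, and transcription factors of hepatocytes such as HNF1 act on the promoters of Alb and Afp.

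The promoters of the 3 genes are shown because they are neighbours that run on the same strand and yet gave different values in the same embryos. All 3 were found in the promoter table of RefSeq, assembly GRCm38.p6, on the plus strand, each with 250 bases before and 50 bases after the annotated start. Capitals mark each match to GTTAAT, a half-site of the HNF1 motif, searched on both strands, where the reverse match reads ATTAAC.
Alb promoter, chr5:90460620-90460919: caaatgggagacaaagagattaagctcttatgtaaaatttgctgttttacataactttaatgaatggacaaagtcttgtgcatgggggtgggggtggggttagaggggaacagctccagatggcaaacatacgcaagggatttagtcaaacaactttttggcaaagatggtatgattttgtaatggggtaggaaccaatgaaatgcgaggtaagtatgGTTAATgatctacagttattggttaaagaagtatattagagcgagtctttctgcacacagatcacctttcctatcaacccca
Afp promoter, chr5:90490464-90490763: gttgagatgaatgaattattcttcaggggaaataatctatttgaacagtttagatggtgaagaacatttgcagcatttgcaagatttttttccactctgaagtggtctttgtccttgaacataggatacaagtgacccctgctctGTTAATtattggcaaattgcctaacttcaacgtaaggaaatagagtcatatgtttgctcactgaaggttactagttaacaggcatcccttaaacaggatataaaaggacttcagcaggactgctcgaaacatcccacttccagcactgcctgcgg
Afm promoter, chr5:90518699-90518998: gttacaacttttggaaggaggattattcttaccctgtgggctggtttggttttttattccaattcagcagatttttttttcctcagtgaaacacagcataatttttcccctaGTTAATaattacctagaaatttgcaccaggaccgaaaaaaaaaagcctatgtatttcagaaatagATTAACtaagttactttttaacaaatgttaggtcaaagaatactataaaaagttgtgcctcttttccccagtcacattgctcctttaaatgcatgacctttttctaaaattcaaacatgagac
The Alb window held 1 match, with its first base at -32 relative to the start. The Afp window held 1, at -105. The Afm window held 2, at -138 on the plus strand and at -73 on the minus strand. Of 32851 mouse promoters of the same length, 2332 (7.1%) held at least 1 match. A match describes letters in this window and not a bound site.

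Every value below is a log2 ratio of mutant over wild-type pool, so 0 means equal signal and a negative value means less signal in the mutant. A gene's value was the mean of its probes, and errors are SDs between animals. Tests used limma with Benjamini-Hochberg adjustment over all features of a comparison, and an adjusted p under 0.05 counted as passed. The ratios carry no signal level, so neither the amount of a transcript nor its presence above background can be read from them. For the same reason the liver label could not be checked by the level of hepatocyte markers. The wild-type animals were pooled, so the tests leave out the spread between wild-type animals.

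Afp, the targeted gene, fell in all mutant embryos to a small fraction of the wild-type signal. Its gene mean was -8.42 in embryo 1, -8.28 in embryo 2, -8.79 in embryo 3, -8.31 in embryo 4, -8.11 in embryo 5 and -8.50 in embryo 6. The 6 values lie close together, and none is near 0. The mean was -8.40 ± 0.23 (SD, n = 6), or 0.296% of the pool, which is 338-fold lower in the mutant embryos (adjusted p = 1.25e-08). Afp had the lowest mean of 17242 features tested. That the ratios run mutant over pool was itself inferred with this gene, so its direction is not a separate result and does not check the labels.

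Each of the 3 Afp probes showed the fall on its own. Probe 19612 read -8.75, -8.25, -8.59, -8.45, -8.45 and -8.44 in embryos 1 to 6. Probe 19709 read -8.75, -8.66, -9.18, -8.45, -8.45 and -9.44, and probe 19729 read -7.75, -7.92, -8.59, -8.03, -7.45 and -7.63. In 6 of 6 embryos these 3 probes were the 3 lowest values on the array, and the next lowest value was -6.59 or higher. Tested as single features, the probes averaged -8.49 (adjusted p = 2.93e-09), -8.82 (adjusted p = 9.63e-08) and -7.90 (adjusted p = 1.37e-07). The probes differed within 1 embryo by a median of 0.868 and by up to 1.81 log2 units, where the gene means of the embryos spanned 0.673.

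The deposited values are rounded, and fetal Afp lies where the steps are coarse. On 17 of 17 arrays the low ratios, once an array constant is removed, are whole thousandths of a linear ratio, in 1209 of 1209 values within 0.0011 log2 units. The 18 fetal Afp readings are therefore ratios of 0.002 to 0.007 before that constant: 2 thousandths in 6 readings, 3 in 5, 4 in 5, 5 in 1 and 7 in 1. One reading covers an interval 0.206 to 0.737 log2 units wide, and probes 19612 and 19709 read the same thousandth in embryos 1, 4 and 5. If every reading stood at the lower end of its interval the mean would be -8.68, or 410-fold lower, and at the upper end -8.17, or 288-fold lower. For all other member values on the 17 arrays the widest interval was 0.0047. At the other end, the 585 values beyond 10 in size all stood at a ceiling ratio of 100000, and 0 of them belonged to the family.

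**Figure D1:**
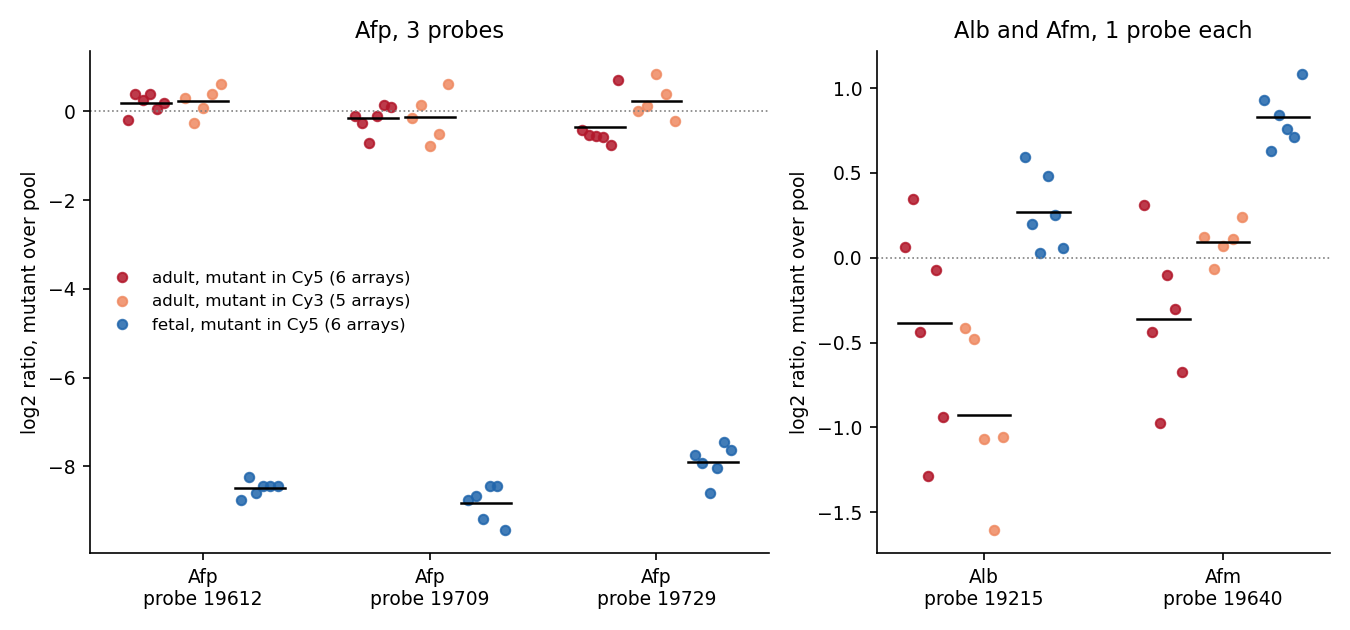
Log2 ratio of mutant over pool on each array for the 3 Afp probes (left) and for the Alb and Afm probes (right, finer scale), with points for adult arrays with the mutant in Cy5, adult arrays with the mutant in Cy3, and fetal arrays, and a bar at each mean. Afp sits between -9.44 and -7.45 on the fetal arrays and between -0.77 and 0.85 on the adult arrays.

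**Figure D2:**
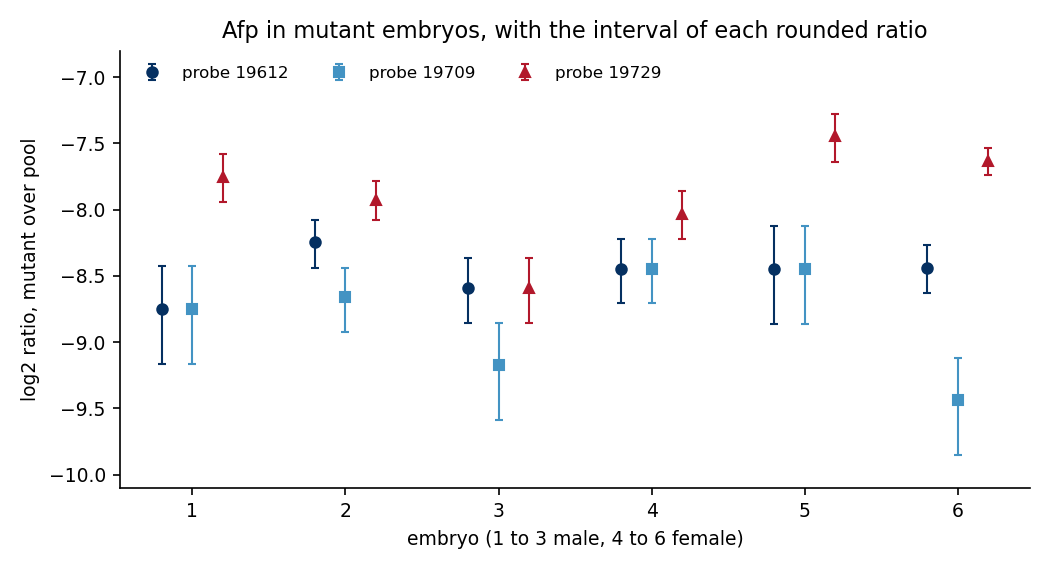
Fetal Afp readings of the 3 probes in embryos 1 to 6 as log2 ratios of mutant over pool, with bars that span the interval of linear ratios rounded to the same thousandth. The intervals are 0.206 to 0.737 log2 units wide, and probes 19612 and 19709 coincide in embryos 1, 4 and 5.

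Afm, which encodes afamin, rose in the mutant embryos. It read 0.93, 0.63, 0.84, 0.76, 0.71 and 1.09 in embryos 1 to 6, above 0 in 6 of 6. The lowest embryo stood at 155% of the pool and the highest at 212%. The mean was 0.83 ± 0.16 (SD, n = 6), which is 1.77-fold higher than the pool (adjusted p = 0.0211). On each fetal array Afm stood above 96.9% to 99.3% of all values. Of all 17242 features, 26 passed (0.151%), or 2 to 5 with 1 embryo left out, and 1.51% had a mean at least as far from 0 as Afm. Of the 3 members, 2 passed, Afp lower and Afm higher. With 1 embryo left out, Afm passed without embryo 6 (0.77, adjusted p = 0.0435), and leaving out any of the other 5 gave 0.81 to 0.87 with adjusted p from 0.0528 to 0.126.

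Alb, the serum albumin gene, did not pass in the embryos. It read 0.59, 0.20, 0.03, 0.48, 0.25 and 0.06 in embryos 1 to 6. The values lie above 0 in 6 of 6 embryos, as they did for 8.33% of 16177 features with complete values, but embryos 3 and 6 are close to 0. The mean was 0.27 ± 0.23 (SD, n = 6), with a 95% interval of 0.05 to 0.49 and an adjusted p of 0.17.

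The fetal arrays all carry the mutant in Cy5, so a dye effect adds to every fetal value. In the adults, where both orientations exist, the difference of the Cy5 and Cy3 arrays divided by 2 was 0.24 ± 0.14 for Alb, above 0 in 5 of 5 animals. It was -0.24 ± 0.26 for Afm and -0.10 ± 0.07 for Afp. With this adult dye profile subtracted, the fetal means were 0.03 for Alb, 1.06 for Afm and -8.30 for Afp. Alb then lay near 0 (adjusted p = 0.82), and Afm and Afp passed in the same direction as before (adjusted p = 0.000101 and 3.76e-09). In this setting 4930 of 16440 features passed, against 26 of 17242 without the subtraction. Why the count rose was not tested. The profile was subtracted as if known without error. The smaller adjusted p of Afm is therefore no stronger result than the one before. The dye profile of the fetal arrays themselves was not tested, because no fetal dye swap was made.

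Within an embryo the members can be set against each other as differences of log ratios. Afm stood above Alb by 0.56 ± 0.30 (SD, n = 6), in 6 of 6 embryos. Afp stood below Alb by a mean of -8.67 and below Afm by a mean of -9.23. A 2-sided exact sign-flip test gave p = 0.0312 for each of the 3 differences, the smallest that 6 embryos allow, and an adjusted p of 0.0625 over the 6 differences computed at both ages. The differences thus did not pass after adjustment, and they set no level of one gene against another.

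Markers of some other cells stood on 1 side of 0 in the same embryos. Erythroid markers (4 of 8 measured) had an embryo mean between -0.37 and -0.03, below 0 in 6 of 6, and exocrine pancreas markers (3 of 6 measured) between -2.17 and -0.74, also below 0 in 6 of 6. Of the 3 pancreas genes, 2 passed lower in the embryos, the elastase gene Cela2a at -1.30 and the carboxypeptidase gene Cpa1 at -1.17 (each with adjusted p = 0.0467). Cholangiocyte markers (5 of 6 measured) had an embryo mean between -0.88 and 0.19. The 6 measured hepatocyte markers other than Alb had an embryo mean between -0.40 and 0.41, above 0 in 5 of 6 embryos. The 5 measured markers of yolk sac and visceral endoderm other than Afp had an embryo mean between -0.03 and 1.30. Single markers went beyond these ranges of means. In a whole-tissue RNA sample, fewer cells of a type and less RNA per cell cannot be told apart, and the part of these markers in the values of Alb and Afm was not tested.

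In adult mutant liver, Afp stood at the level of the wild-type pool, and no member passed. The animal means of Afp were -0.09, -0.06, -0.14, -0.0023, -0.19 and 0.34 in animals 1 to 6. Animals 1 to 5 lie within 0.19 below 0, and animal 6 stands apart above it. The mean was -0.03 ± 0.19 (SD, n = 6), with a 95% interval of -0.26 to 0.21 (adjusted p = 0.944). In the adults 0 of 17039 features passed (0%), while 1321 (7.75%) had an unadjusted p under 0.05 by limma, Alb among them. As the ratios hold no level, a value near 0 does not show that the adult pool contained the transcript, and the adult arrays cannot serve as a check of the genotype.

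The 3 Afp probes differed in sign in the adults. Probe 19612 averaged 0.19 ± 0.17 over the 6 animal means, above 0 in 6 of 6, as were 3.45% of 16455 features with complete values, and probe 19709 averaged -0.12 ± 0.38. Probe 19729 averaged -0.14 ± 0.36, and it read between -0.76 and 0.72 with the mutant in Cy5 and between -0.22 and 0.85 with the mutant in Cy3. None passed as a single feature, with adjusted p from 0.647 to 0.81. The sign of the gene mean depends on the dye: it was -0.11 ± 0.24 over the 6 Cy5 arrays and 0.11 ± 0.13 over the 5 Cy3 arrays.

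Alb had the lowest mean of the family in the adults, without passing. The animal means were -0.18, -0.07, -0.75, -1.45, -0.07 and -0.998 in animals 1 to 6. Animals 3, 4 and 6 read 59.3%, 36.7% and 50.1% of the pool, and the other 3 read 88.5% to 95.6%. The mean was -0.59 ± 0.57 (SD, n = 6), or 66.7% of the pool (adjusted p = 0.639). All 6 means lie below 0, as they did for 2.82% of 16455 features with complete values. Both orientations gave a mean below 0, at -0.39 ± 0.63 over 6 Cy5 arrays and -0.93 ± 0.49 over 5 Cy3 arrays, and in 5 of 5 animals the Cy3 array was the lower.

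The other hepatocyte markers also lay mostly below 0 in the adults. The 7 measured markers other than Alb had animal means between -0.84 and 0.56, with a median of -0.44, below 0 in 5 of 6 animals. Endothelial markers (2 of 5 measured without gaps) had animal means between -0.61 and -0.17, below 0 in 6 of 6. The part of these markers in the Alb value was not tested.

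Afm showed no shared direction among the adults. The animal means were 0.22, -0.25, -0.46, 0.0045, -0.31 and -0.22 in animals 1 to 6. They lie on both sides of 0, with 2 above and 4 below. The mean was -0.17 ± 0.24 (SD, n = 6), with a 95% interval of -0.43 to 0.09 (adjusted p = 0.686). It was -0.36 ± 0.45 over the 6 Cy5 arrays and 0.09 ± 0.11 over the 5 Cy3 arrays, so the sign turned with the dye. Differences between members within an adult also failed the exact sign-flip test, with Afp minus Alb at 0.56 ± 0.69 (p = 0.156), Afm minus Alb at 0.42 ± 0.63 (p = 0.188) and Afp minus Afm at 0.14 ± 0.29 (p = 0.344), with n = 6 each.

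**Figure D3:**
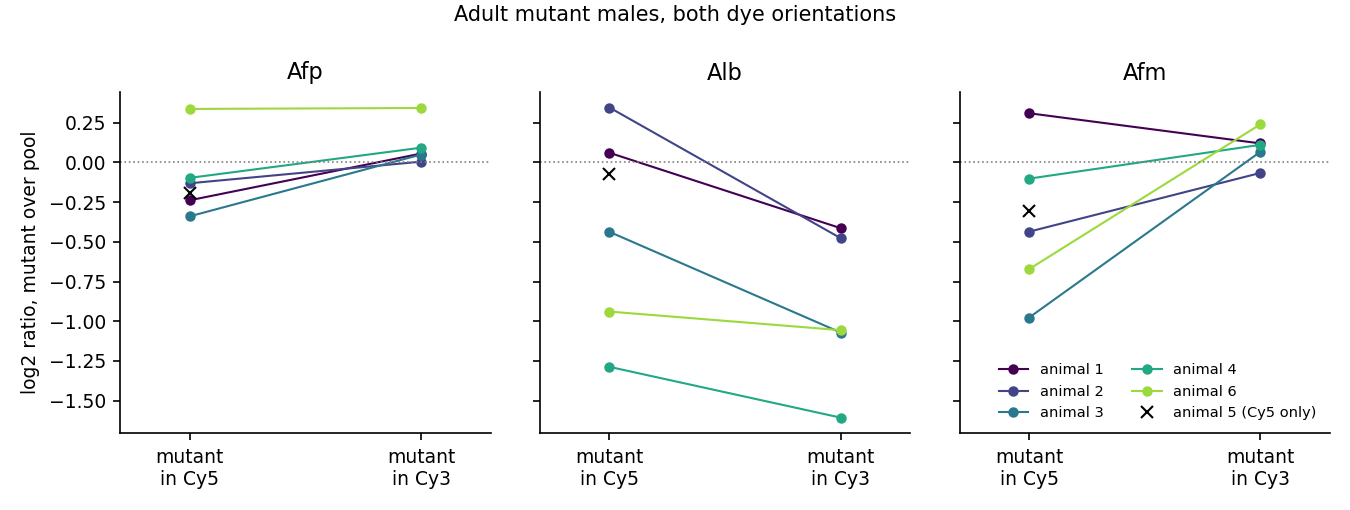
Log2 ratio of mutant over pool for Afp, Alb and Afm in adult mutant males, with the array of the mutant in Cy5 joined to the array of the mutant in Cy3 of the same animal, and a cross for animal 5, measured in Cy5 alone. Alb is lower on the Cy3 array in 5 of 5 animals. Afp of animal 6 is highest in both orientations, at 0.34 and 0.34, carried by different probes in each.

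The 2 ages were compared directly on the arrays that share the mutant in Cy5. For Afp the adults averaged -0.11 ± 0.24 and the embryos -8.40 ± 0.23 (SD, n = 6 each), a difference of 8.29 (adjusted p = 1.44e-12). Afm stood at -0.36 ± 0.45 in the adults and at 0.83 ± 0.16 in the embryos, a difference of -1.19 with a 95% interval of -1.61 to -0.77 (adjusted p = 0.0322). For Afp and for Afm the adult and fetal values do not overlap. The share of all features without overlap was not counted, so this is not read as particular to the members. By limma, 3292 of 16309 features (20.2%) had an unadjusted p under 0.05 between the ages. Alb averaged -0.39 ± 0.63 in the adults and 0.27 ± 0.23 in the embryos, and the difference of -0.66 did not pass (adjusted p = 0.18). Here 23 of 16309 features passed (0.141%), of which 2 were members, Afp higher and Afm lower in the adults relative to the embryos. Leaving out 1 animal at a time left 4 to 1251 features, the most without adult 1. Each age has a pool of its own, so the difference is one of 2 ratios and sets no adult level against a fetal one. Without embryos 5 and 6 the Afm difference was -1.15 (adjusted p = 0.0936), and leaving out 1 animal at a time it ran from -1.32 to -1.07, passing in 2 of 12 such fits.

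No member passed between female and male embryos. Afp averaged -8.31 ± 0.20 in female and -8.49 ± 0.26 in male embryos, a difference of 0.19 (2-sided exact permutation p = 0.5, n = 3 each). Alb averaged 0.26 ± 0.21 in female and 0.27 ± 0.29 in male embryos, with a difference of -0.01 and a 95% interval of -0.49 to 0.47 (exact p = 1). Afm averaged 0.85 ± 0.20 in female and 0.80 ± 0.15 in male embryos, a difference of 0.05 (exact p = 0.7). Such a test of 3 against 3 cannot go below p = 0.1. The sex label of the pool also varied, female on the arrays of the 3 female embryos and of male embryo 3, and male on those of embryos 1 and 2, so embryo sex and pool label largely coincide. Over all features 2 of 17212 passed (0.0116%), and 0 of them were members.

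The order of the family differed between the ages. In the embryos the order of mean log ratios was Afm, Alb and Afp from high to low, with Afm above Alb in each embryo. In the adults it was Afp, Afm and Alb, and none of these neighbours differed beyond the spread between animals. No correlation between members across the 6 animals of 1 age passed. Over the embryos Pearson's r was -0.518 between Afp and Afm (exact permutation p = 0.275, Spearman's rho -0.771, exact p = 0.103), 0.44 between Afp and Alb (exact p = 0.388, rho 0.486, exact p = 0.356) and -0.13 between Alb and Afm (exact p = 0.81, rho -0.0857, exact p = 0.919). Over the adults it was -0.516 between Afp and Alb (exact p = 0.306, rho -0.543, exact p = 0.297), 0.0932 between Afp and Afm (exact p = 0.858, rho 0.543, exact p = 0.297) and -0.0548 between Alb and Afm (exact p = 0.915, rho -0.314, exact p = 0.564). Adjusted over the 6 pairs, p was at least 0.775 for r and at least 0.533 for rho. Without the 2 animals farthest from the median of the first-named gene, r ran from -0.989 to 0.49 on the 4 animals left.

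The genes whose log ratios most resembled each member were sought among 8051 named genes over 12 animals, the 6 adults with the mutant in Cy5 and the 6 embryos. Pearson's r is given as a description, since the points share arrays, dye and the split into 2 ages. For Alb the nearest were Fhod1 (0.945), Scd1 (0.944), Ddit3 (0.933), Fads1 (0.913) and Acly (0.912), and within the ages r was between 0.869 and 0.918. The same 12 animals picked these genes, so r within the ages is no separate support for Alb or for Afm. Scd1, the stearoyl-CoA desaturase, averaged -0.48 ± 1.09 in the adults and 0.64 ± 0.19 in the embryos. For Afm the nearest were Serpinc1 (0.956), which encodes antithrombin, Zfp36l1 (0.945), Cisd1 (0.937), Cnp (0.936) and Tm2d2 (0.934), with r within the ages from 0.645 to 0.932. Serpinc1 averaged -0.57 ± 0.51 in the adults and 0.27 ± 0.19 in the embryos.

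For Afp the nearest were Luzp1 (0.943), Bzw2 (0.94), Cyp17a1 (0.918), Sfxn2 (0.913) and Mcm2 (0.913). These follow the step between the ages and not the animals, since within the ages r was 0.218 to 0.539. None of them came near the size of the Afp step: Cyp17a1, a steroid hydroxylase, averaged 1.03 ± 0.44 in the adults and -0.50 ± 0.33 in the embryos. Over the 6 embryos alone, among 8520 genes, the 3 nearest were Ldhd, Pias1 and Tmem135 for Afp (r 0.977 to 0.995), Srm, Baiap2 and Slc17a3 for Alb (0.982 to 0.997), and Klf2, Cdk14 and Pakap for Afm (0.977 to 0.992). These are the highest of 8520 values over 6 points only, and how high chance alone would reach was not tested. For Afp the probes differed within an embryo by a median of 0.868, more than the 0.673 that the gene means of the embryos spanned. Between members, r over the 12 animals was 0.587 for Alb and Afm, -0.615 for Afp and Alb, and -0.893 for Afp and Afm. These pooled values hold the step between the ages. Over the embryos and over the adult animal means, r was -0.13 and -0.0548 for Alb and Afm. It was 0.44 and -0.516 for Afp and Alb, and -0.518 and 0.0932 for Afp and Afm, and none passed.

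The measured genes on either side of the family showed no change that passed. On the Alb side the nearest measured gene was Ankrd17, with 2 unmeasured genes between, at 0.11 in the adults and 0.41 in the embryos (adjusted p = 0.84 and 0.118). On the Afm side the nearest was Ppbp, a platelet chemokine, with 6 unmeasured genes between, at 0.03 in the adults (adjusted p = 0.989) and without enough fetal values to be tested. The next was Pf4, another platelet chemokine, at 0.01 in the adults and 0.40 in the embryos (adjusted p = 0.983 and 0.128). Of the 10 measured genes on each side, 20 were tested in the adults and 17 in the embryos, and 0 passed at either age or between the ages. The smallest adjusted p was 0.639 in the adults, 0.0933 in the embryos and 0.115 between the ages. Their median was -0.06 in the adults and 0.13 in the embryos, against 0.008 and 0.005 over all features.

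**Figure D4:**
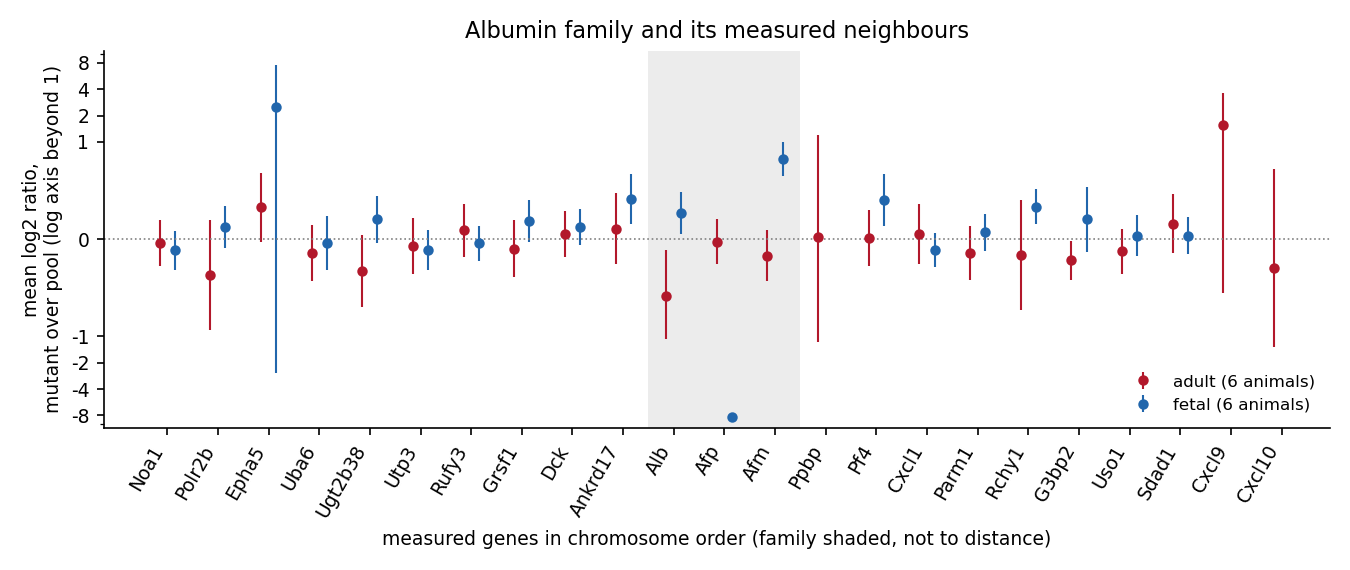
Mean log2 ratio of mutant over pool, with 95% intervals from limma, for the family (shaded) and the 10 measured genes on each side in their order along chromosome 5, adults beside embryos, on an axis that is linear up to 1 and logarithmic beyond. Only fetal Afp at -8.40 and fetal Afm at 0.83 passed among the genes drawn.

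Plasma carrier proteins, which share the transport role of the family, had means mostly below 0 in the adults and mostly above 0 in the embryos, without a call. Of 18 listed genes, 16 were tested in the adults, with 1 mean above 0 and 15 below (median -0.26), and 15 in the embryos, with 14 above 0 and 1 below (median 0.27). The medians over all features were 0.008 in the adults and 0.005 in the embryos, and 0 of the listed genes passed in either direction at either age or between the ages. The fetal means of this list and of those below hold any dye effect and were not corrected for it. Igfbp1, a binding protein of insulin-like growth factors, averaged 0.96 ± 0.83 in the embryos (adjusted p = 0.129). Apoe, the apolipoprotein E gene, averaged -0.57 ± 0.30 in the adults (adjusted p = 0.639), below 0 in 6 of 6. Cp, encoding ceruloplasmin, averaged 3.05 ± 4.47 in the embryos, with 2 of its readings at the ceiling of the deposited ratios, and was 0.43 without them. Hp, encoding haptoglobin, averaged -0.93 ± 3.78 in the adults with 1 such reading, and 0.46 without it.

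Receptors and adaptors that take up or recycle albumin and alpha-fetoprotein gave no call. Of 10 listed genes 6 were tested at each age, with 3 means above 0 and 3 below in the adults (median 0.02), and 4 above and 2 below in the embryos (median 0.15). B2m, the light chain that pairs with the albumin-recycling receptor FcRn, averaged -0.63 ± 0.53 in the adults (adjusted p = 0.639). Dab2, an endocytic adaptor, averaged 0.55 ± 0.52 in the embryos (adjusted p = 0.149). Amn, which encodes amnionless and anchors the receptor cubilin at the membrane, averaged 0.27 ± 1.09 in the adults and 0.38 ± 0.36 in the embryos (adjusted p = 0.829 and 0.168). The adult dye profile was 1.055 for Dab2 and 0.807 for Amn, in each case larger than the fetal mean.

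Among 27 transcription factors and regulators of the family, 18 were tested at each age and 0 passed. In the adults 6 means lay above 0 and 12 below (median -0.06), and in the embryos 13 above and 5 below (median 0.10). Cebpa, a hepatocyte factor that acts on the Alb promoter, averaged -0.38 ± 0.40 in the adults and -0.67 ± 0.50 in the embryos (adjusted p = 0.639 and 0.11), below 0 in 5 of 6 adults and in 6 of 6 embryos. Cebpd averaged 0.60 ± 0.46 over the 4 adults with a value (adjusted p = 0.639). Nfix averaged 0.81 ± 1.63 in the embryos with 1 reading at the ceiling, and 0.10 without it.

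A list drawn up for genes switched off in liver after birth like Afp gave no call. Whether each listed gene, such as Cdh1, is off in adult liver cannot be read from these ratios. Of 10 listed genes, 6 were tested in the adults (2 means above 0, 4 below, median -0.13) and 5 in the embryos (4 above, 1 below, median 0.09), and 0 passed. Cdh1, which encodes E-cadherin, averaged 0.19 ± 0.47 in the embryos (adjusted p = 0.524). Peg3, a paternally expressed zinc finger gene, averaged 1.09 ± 1.73 in 5 adults and -0.17 ± 0.73 in 6 embryos (adjusted p = 0.67 and 0.722). Gpc3, a glypican known with Afp as a marker of liver tumours, averaged -0.81 ± 1.24 in the adults (adjusted p = 0.654).

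Genes that handle fatty acids and vitamin E, ligands of the family's proteins, gave no call either. Of 13 listed genes 10 were tested at each age, with 1 mean above 0 and 9 below in the adults (median -0.36), and 7 above and 3 below in the embryos (median 0.11). Slc27a2, a fatty acid transporter and acyl-CoA synthetase, averaged -0.60 ± 0.61 in the adults, and Fabp1, the liver fatty acid binding protein, averaged -0.54 ± 0.60 (each with adjusted p = 0.639). Fabp1 averaged 4.39 ± 8.55 over the 4 embryos with a value, with 1 reading at the ceiling, and 0.15 without it. Pltp, the phospholipid transfer protein, averaged 0.39 ± 0.25 in the embryos (adjusted p = 0.105), above 0 in 6 of 6.

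**Figure D5:**
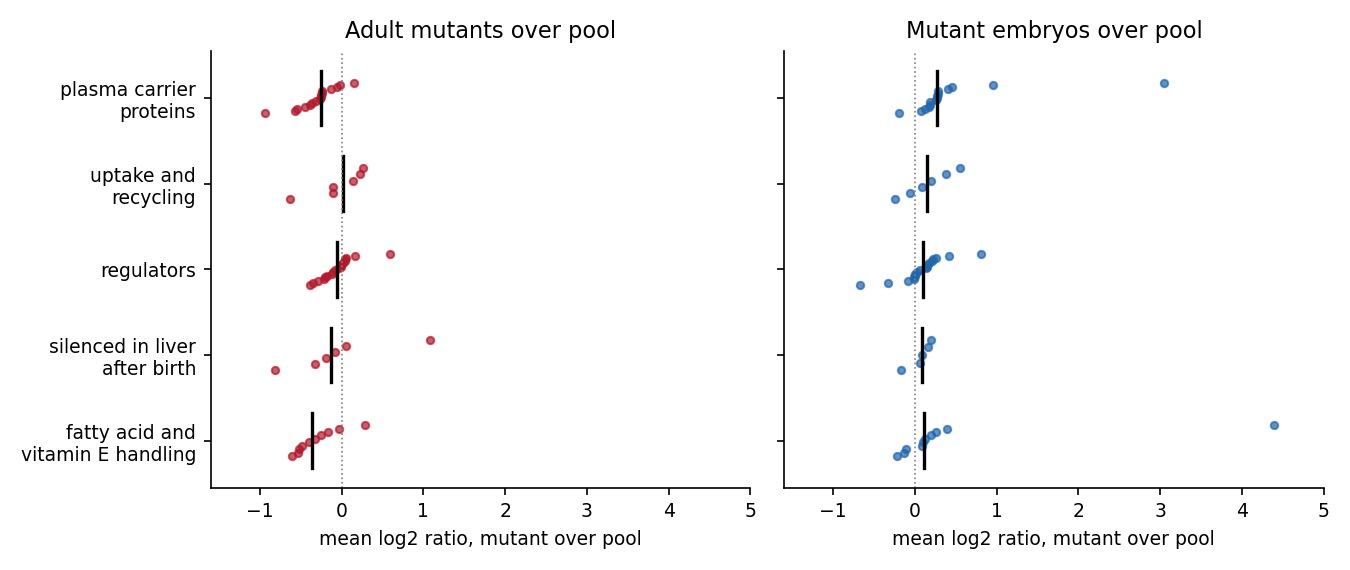
Mean log2 ratio of mutant over pool of each tested gene of 5 lists related to the family, in the adults (left) and in the embryos (right), with a black bar at the median of each list. The plasma carrier median is -0.26 in the adults and 0.27 in the embryos, and the embryo points at 3.05 (Cp) and 4.39 (Fabp1) rest on readings at the ceiling.

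Fetal values were read 11 rows below the row of their probe, which decides every fetal value of the family. Leaving the 3 members out, 4687 pairs of probes of the same gene correlated best at 11 rows among 121 offsets (Spearman's rho 0.0869, against 0.0659 at the next best and -0.0036 at 0 rows). The adult means correlated best at 0 rows (0.0556). The 3 Afp rows averaged -8.40 at 11 rows and -2.93 at the next lowest offset. The value at 11 rows is the fetal Afp result itself and is no separate support for the shift. The size and rank of fetal Afp rest on the same shift. Read without the shift, the fetal means were 0.14 for Afp and 0.27 for Afm, and neither passed. Embryo 5 showed almost no correlation of same-gene probes (0.00547), and embryo 6 almost none with the adult dye profile (0.0167, against 0.209 to 0.471 in the others). Without both, Afp stood at -8.45 (adjusted p = 5.14e-06) and Afm at 0.79 (adjusted p = 0.0949).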

How the data were processed

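Total liver RNA of Afp mutant mice and of wild-type pools was labelled indirectly with Cy3 and Cy5, per the labels' protocols, which state a pool from 6 control animals, while the fetal array labels name 4. The authors deposited 1 table of log2 ratios with 20794 rows and 17 arrays, each with 20078 to 20697 values; signal levels and depth are unknown, and for image analysis and normalization the sources used here state nothing. Base 2 follows from the values: low ratios were whole thousandths to base 2 in 1209 of 1209 cases, where 1.37% to 16.2% would be whole by chance. The 5 arrays with the mutant in Cy3 show this with their sign turned (363 of 363). With the opposite sign 7 of 31, 15 of 85, 48 of 154, 19 of 108 and 10 of 80 of their low ratios were whole. Over all arrays the opposite sign gave 18.3%. The Cy3 arrays were therefore kept as deposited, as mutant over pool. That all ratios run mutant over pool rests on fetal Afp itself, so the direction of the Afp fall is not an independent result.

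Probes were named by the platform annotation; all 12771 named probes were found in RefSeq assembly GRCm38.p6. Fetal values of probe p were read from row p plus 11, for probes up to 20000, and the last 794 fetal rows stayed unnamed. Probes of a gene and arrays of an adult were averaged, and a feature needed values in 4 of 6 animals. Ratios were tested against 0, between ages and between sexes of embryos with limma 3.58.1 in R 4.3.3 (lmFit, eBayes, Benjamini-Hochberg, 0.05), which was also tested on simulated data. Exact sign-flip and permutation tests were run in Python 3.11.15 with numpy 2.4.6 and scipy 1.17.1, the sign-flip test with numpy alone. No label says more of how animals were bred, so p-values measure the spread between these animals. Columns left unmapped numbered 0.

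The members, the gene lists and the tests were chosen with earlier results of these data known. Genes named beside the members were the 5 nearest by Pearson's r over 12 animals and the 3 nearest over the embryos, the nearest measured neighbours on each side and any that passed, and from each list those that passed and up to 2 of the largest mean size per age. Alternatives were the row naming, the dye profile, the dye orientation and sign, centring, the probe summary, the filter on missing values, values beyond 10, robust eBayes, the animal as a random block, the array number as a block and leaving out animals. The ends of the Afp rounding intervals were added after seeing the data. Among the Cy5 arrays compared between the ages, array numbers 1, 3 and 5 occur in both. Deviations of same-numbered arrays correlated at 0.01, 0.009 and -0.003, which shows no link but cannot exclude a shared batch.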

Additional observations from a re-analysis of the deposited data

Results flagged for a closer look

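Afp of adult animal 6 stood apart above the other adults, at 0.34 as an animal mean, at 0.337 on its Cy5 array and at 0.343 on its Cy3 array. Probe 19729 read 0.717 on the Cy5 array of the same animal, where the other 5 adults lay below 0. On the Cy3 array of animal 6 this probe read -0.22, the lowest of the 5 animals there. Probes 19612 and 19709 read 0.199 and 0.096 on its Cy5 array, and 0.625 and 0.623 on its Cy3 array. The like gene means of the 2 arrays thus rest on different probes. The flagged values were 4 of 24 groups of values examined for a single distant sample, where chance gives about 5%. The 4 share 1 animal and are not independent.

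The log ratio of Afp differed between the ages by 8.29 (adults minus embryos, limma adjusted p = 1.44e-12), and that of Afm by -1.19 (adjusted p = 0.0322).

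Probe 19614, which carries no gene symbol, averaged -5.62 ± 0.50 in the embryos (SD, n = 6, adjusted p = 1.44e-05) and -0.07 ± 0.17 in the adults (adjusted p = 0.827). It was the next lowest value after the 3 Afp probes in 4 of 6 embryos. What it measures is not given in the sources used here, and it was chosen after its values were seen.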

How the results depend on the processing

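Fetal Afp passed lower in every alternative with a test except the row names as deposited (the 2 ends of the rounding intervals carry no test), and fetal Alb passed in none. With fetal names as deposited, fetal Afp was 0.14 and fetal Afm 0.27, the adult minus fetal values were -0.25 for Afp and -0.63 for Afm with 1584 features passing, and female minus male Afp was -0.13. Without embryos 5 and 6, fetal Afm was 0.79 and its age difference -1.15, neither passing, with 2 and 4 features left. The fetal count was 4930 with the dye profile subtracted as if known without error, 43 with the median of probes, 88 with each probe apart, 61 with a value in every animal, 83 without values beyond 10 and 81 with robust eBayes. The age count was 9 with adult means over both dyes, 36 with a value in every animal, 42 without values beyond 10 and 40 with robust eBayes, and the sex count was 0, 0 and 1 under the last 3. Leaving out 1 animal gave fetal counts of 2 to 5, fetal Afm of 0.77 to 0.87, an Afm age difference of -1.32 to -1.07, age counts of 4 to 1251 (1251 without adult 1, 78 without embryo 5) and sex counts of 0 to 4. The same step moved female minus male Alb over -0.13 to 0.15 and Afm over -0.0638 to 0.12. The causes were not tested.

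In the adults, 1764 features passed with the Cy3 arrays turned in sign, which put Alb at 0.19. With the mutant in Cy5 alone 1106 passed, in Cy3 alone 699, and with the animal as a random block 1. With Cy3 alone Afp was 0.11 and Afm 0.0944. Afp was 0.0078 in the 5 animals with both dyes and 0.0344 with the median of probes, and leaving out 1 animal gave -0.0982 to 0.0078. With the array number as a replicate block the age count was 8 and Afm lay at -1.20 (adjusted p = 0.603). Signal over background is unknown, so whether adult Afp was detected in either channel could not be read. The ends of the rounding intervals put the fetal Afp mean at 288-fold and 410-fold lower, which covers rounding alone.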
